A study of Rattus norvegicus with 12 samples.

Results

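Oxidative phosphorylation is the step in which mitochondria turn nutrients into ATP. Complex I (NADH dehydrogenase) and complex II (succinate dehydrogenase) pass electrons through complex III (cytochrome bc1) and cytochrome c to complex IV (cytochrome c oxidase), and complex V (ATP synthase) uses the proton gradient that complexes I, III and IV build. Neurons depend on it for the pumps that restore ion gradients after firing, so the hippocampus expresses these genes strongly. Most subunits are encoded in the nucleus and a few in mitochondrial DNA. Only nuclear genes are described here.

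The members were all probe sets whose single gene symbol in the array annotation began with Nduf, Uqcr, Atp5, Cox4, Cox5, Cox6, Cox7 or Cox8, or was Sdha, Sdhb, Sdhc, Sdhd, Cyc1 or Cycs. A probe set is the group of array probes that together measure a transcript. The rule took 90 of 15923 probe sets, for 85 of 10411 genes, and used no measured value. It found 0 probe sets for Cycs alone, and 9 further probe sets carrying several symbols were left out. Of the 90, 81 passed a filter that kept the brightest 60% of the array, measuring 80 genes. They comprised 36 of complex I, 5 of complex II, 8 of complex III, 11 of complex IV, 16 of complex V and 5 Ndufaf genes, whose products assemble complex I without staying in it. Complexes were assigned by gene name. Ndufa4 was therefore counted with complex I, although its product is now regarded as part of complex IV. The complex IV names include Cox7a2l, a factor that joins complexes into supercomplexes, and those of complex V include Atp5if1, an inhibitor of the enzyme.

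The study measured total RNA of rat hippocampus in 12 samples, asking whether enriched housing lessens the injury that seizures cause to neurons. There were 4 groups of 3 samples, and each sample was pooled from 3 to 4 animals. PBS_isolated and KA_isolated rats received PBS or KA at postnatal day 20 and lived alone in individual cages for the 10 days before tissue was taken. PBS_enriched and KA_enriched rats had the same treatments and lived 8 to a large cage. The labels do not spell out KA, which is taken as kainic acid, a glutamate receptor agonist that induces seizures, because the series concerns seizures. No group had ordinary group housing, so enrichment and isolation cannot be told apart. The strain, litter and cage of an animal are not given in the labels. A p-value here thus reflects how pools differ, which may be partly technical.

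The arrays were closely alike, with medians of 70.06 to 74.1 and mean correlations with the other arrays of 0.977 to 0.986. The lowest correlation belonged to KA_enriched replicate 3, which also had the highest ratio of 3' to 5' signal for beta-actin (a log2 of 0.86, against 0.36 to 0.64 in the others), a sign of RNA quality. Counts and medians over the members are given with and without it where they rest on this sample. All 6 measured markers of hippocampal pyramidal and granule neurons passed the filter, none with a signal under 139. Passing it cannot by itself tell the hippocampus from other brain tissue. Of 5 measured markers of thalamus and striatum, 2 passed the filter too. In bulk tissue, fewer cells of a type and less RNA per cell cannot be told apart.

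Promoters of nuclear genes of this system are known to be bound by NRF1, by the ETS factor GABP and by YY1. RefSeq (assembly GRCr8) gave promoter windows for 76 of the 85 member genes, each reaching from 250 bases before the start to 50 after it. They were searched on both strands for GCGCANGCG (NRF1), CCGGAAG (ETS) and ANATGGCG (YY1), where N is any base. The NRF1 letters stood in 19 windows (25%), against 14.8% of 6452 windows of genes tested on the array and 5.8% of all 33469 windows. For the ETS letters the count was 21 (27.6%, against 18.2% and 8.75%), and for YY1 18 (23.7%, against 9.45% and 4.2%). In all of these but Atp5pf, Ndufa13 and Ndufs1 the YY1 letters lay after the start, within the transcribed bases. The members were less GC-rich than the genes tested on the array, with a median GC content of 56% against 62%. YY1 letters occurred in 11 of 34 complex I windows and in 0 of 12 complex IV windows, and NRF1 letters in 6 of 15 complex V windows. A match describes letters and is no evidence of binding. The 6 windows below belong to members discussed in the results, to the brightest of a complex or, for Atp5me, to a member with both NRF1 and ETS letters, and each shows the last 130 bases before the start on the gene's own strand, with matches in capitals.
Ndufaf5, chr3:147961482-147961611 (+ strand): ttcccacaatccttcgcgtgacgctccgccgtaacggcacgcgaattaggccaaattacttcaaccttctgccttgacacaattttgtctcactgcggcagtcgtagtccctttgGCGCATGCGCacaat
Ndufs8, chr1:210573699-210573828 (- strand): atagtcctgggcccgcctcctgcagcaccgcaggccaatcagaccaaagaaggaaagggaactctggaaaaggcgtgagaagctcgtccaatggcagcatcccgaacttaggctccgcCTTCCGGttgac
Sdha, chr1:30764423-30764552 (+ strand): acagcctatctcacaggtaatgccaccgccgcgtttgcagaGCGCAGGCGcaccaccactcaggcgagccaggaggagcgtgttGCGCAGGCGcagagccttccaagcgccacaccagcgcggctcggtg
Uqcrq, chr10:38089979-38090108 (- strand): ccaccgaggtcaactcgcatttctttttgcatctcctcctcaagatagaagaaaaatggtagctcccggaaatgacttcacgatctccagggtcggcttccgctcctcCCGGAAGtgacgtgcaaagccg
Cox8a, chr1:213833624-213833753 (- strand): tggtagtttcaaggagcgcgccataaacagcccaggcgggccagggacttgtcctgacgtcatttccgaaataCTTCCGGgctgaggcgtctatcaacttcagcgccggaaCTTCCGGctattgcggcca
Atp5me, chr14:1464730-1464859 (+ strand): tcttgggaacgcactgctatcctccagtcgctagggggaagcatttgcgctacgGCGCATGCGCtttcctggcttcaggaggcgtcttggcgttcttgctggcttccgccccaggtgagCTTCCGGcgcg

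In the Ndufaf5 window the NRF1 letters began 15 bases before the start, and because the match is nearly a palindrome it also reads on the other strand 1 base further on. Sdha held the same letters 89 and 46 bases before the start, with another match that began 1 base before the start and ran past the printed end. Ndufs8 and Uqcrq each had an ETS match, 12 and 22 bases before the start, and Cox8a had a pair of them, at 57 and 19 bases. Atp5me carried both kinds, NRF1 letters at 76 bases and ETS letters at 11.

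The members were among the brightest features of the array, which sets how precisely they were measured. Of the 90, 64 (71.1%) lay in the brightest 10% of all probe sets, and the median mean signal of the 81 tested was 840, against 155 over all 9520 tested. Probe sets differ in how well they bind their transcript, so these ranks describe the signals of the array and not amounts of transcript. After removing group means, the SD of log2(signal + 17) had a median of 0.0985 over the members, against 0.123 over all tested probe sets and 0.0863 over the 668 at or above the members' median level. The tightest were Ndufa13 (0.039) and Cox7b (0.046), and the widest were Cox7a1 (0.345), Ndufaf8 (0.308) and Ndufa3 (0.247).

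By signal, the brightest probe sets were Ndufa4 for complex I, Sdha for II, Uqcr11 for III, Cox8a for IV and Atp5f1b, the catalytic beta subunit, for V. Ndufa4 is counted here by its name, and Ndufb9 came next in complex I, with a mean signal of 1735. Mean ± SD signals of Ndufa4 were 1868 ± 149 after PBS and 1901 ± 187 after KA in isolated rats, and 1725 ± 30.1 and 1854 ± 149 in enriched rats (n = 3 per group, here and for all group means). Those of Atp5f1b were 3349 ± 61.9 after PBS and 3532 ± 414 after KA in isolated rats, and 3157 ± 156 and 3344 ± 173 in enriched rats. For Uqcr11, a small subunit of complex III, they were 1528 ± 59.8 after PBS and 1584 ± 17.3 after KA in isolated rats, and 1562 ± 80.2 and 1560.3 ± 56.6 in enriched rats. The largest group mean exceeded the smallest by less than the sum of their SDs in Ndufa4 and in Atp5f1b.

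Complex IV has isoforms that differ between tissues, and several had probe sets of their own. Signals are not compared between them. Among the general forms, signals over the 12 samples ran from 2371 to 2781 for Cox4i1, from 1519.8 to 1902 for Cox6a1, from 972 to 1219.8 for Cox6b1 and from 2644 to 3675 for Cox8a. Probe sets for Cox4i2 of lung and hypoxic cells (27.5 to 39.2), Cox6a2 of heart and muscle (13.6 to 30.6), Cox6b2 of testis (3.38 to 18.7) and Cox8b of heart and muscle (1.33 to 3.17), did not pass the filter on the array's brightest 60% and were not tested. Cox7a1, a heart and muscle form, passed it narrowly at 32.8 to 69.1. Ndufa4l2, the hypoxia-induced relative of Ndufa4, ranged from 37.0 to 69.7. The other probe sets below the filter were the pseudogene Cox6c-ps1, the second of Ndufv3, the second of Atp5me and the dimmer 2 of Atp5if1.

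No oxidative phosphorylation gene passed the test in any comparison. The test was limma on log2(signal + 17), with Benjamini-Hochberg adjustment across all 9520 probe sets and a threshold of 0.05. The share called over the whole array was also low. It was 0.0105% for the KA comparison within isolated rats and 0% within enriched rats. It was 0.0105% for enriched against isolated housing after PBS, 0% after KA, 0.0105% for KA over both housings, 0.021% for housing over both treatments and 0% for the interaction. The lowest adjusted p of a member was 0.630 (limma), for Ndufaf5 between the housings after KA. The values below are therefore descriptions, with log2 differences, their standard errors (SE) and the adjusted p of those with the smallest p.

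KA against PBS in isolated rats asks which genes differed after the treatment in rats that lived alone. Of the 81 probe sets, 59 had the higher mean after KA and 22 the lower, with a median log2 difference of 0.050, against -0.0053 over all tested probe sets. Complex V had 14 of 16 higher (median 0.058), complex IV 9 of 11 (0.055), complex I 25 of 36 (0.025), complex III 5 of 8 (0.027) and complex II 3 of 5 (0.041). At an unadjusted p under 0.05, 0 members were higher and 2 lower, while 4.31% of all tested probe sets had such a p in either direction. Quantile normalization brought the share of members with the higher mean from 72.8% to 59.3%. The groups did not overlap for 6 higher members and 1 lower, 8.64% of them against 10.8% of all tested probe sets.

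The plot of every tested probe set by complex shows these small differences beside the wider spread of the assembly genes.

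**Figure D1:**
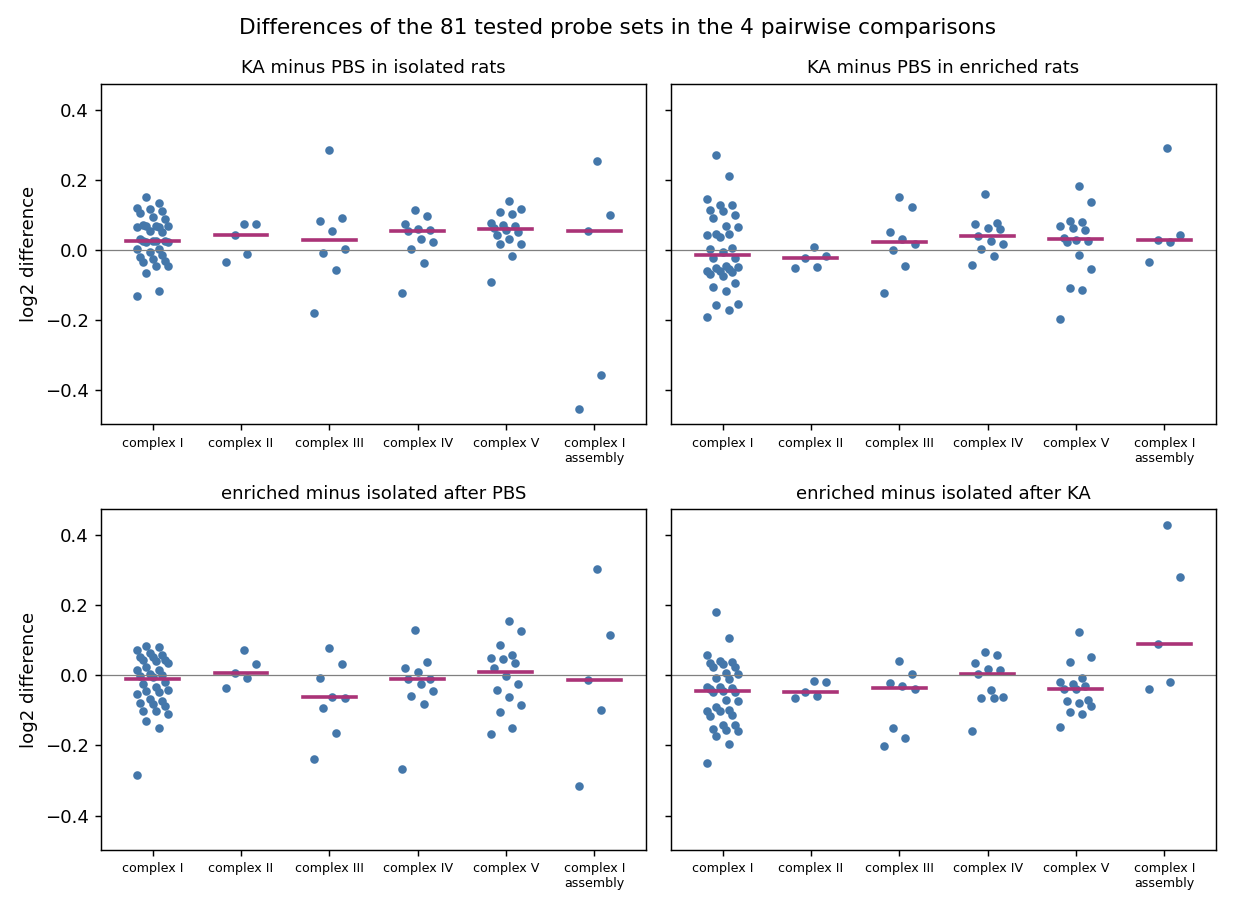
Log2 differences (vertical axis) of the 81 tested probe sets in the 4 pairwise comparisons, arranged by complex, with a point per probe set and a line at the median of each complex. Medians lie close to 0, from -0.063 to 0.091, and the points farthest from 0 are Ndufaf genes, at -0.45 in the upper left panel and 0.43 in the lower right.

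The 2 lower members were the complex I assembly factors Ndufaf5, an enzyme that modifies the core subunit Ndufs7, and Ndufaf4. Signals of Ndufaf5 were 77.1, 121 and 123 in PBS_isolated and 70.7, 77.5 and 68.5 in KA_isolated. They were 83.4, 85.9 and 74.6 in PBS_enriched and 86.8, 114 and 111 in KA_enriched. PBS_isolated replicate 1 lay with the KA_isolated samples, so those groups overlapped, whereas all 3 KA_enriched samples lay above all 6 of KA_isolated and PBS_enriched. The log2 difference between KA and PBS was -0.45 in isolated rats (SE 0.14, limma, adjusted p = 0.999) and 0.29 (SE 0.14) in enriched rats. Their difference, the interaction, was 0.74 (SE 0.20), with an adjusted p of 0.863 (limma). Between the housings it was -0.31 (SE 0.14) after PBS and 0.43 (SE 0.14) after KA, a 1.35-fold ratio with a 95% interval on the log2 scale of 0.13 to 0.73. These comparisons share groups and are not independent of each other.

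Ndufaf4, which works with Ndufaf3 in the same assembly pathway, had signals of 210.1, 167 and 169.8 in PBS_isolated and 131, 138 and 144 in KA_isolated. It had 148, 196 and 164 in PBS_enriched and 192, 182 and 143 in KA_enriched. All KA_isolated samples lay below all PBS_isolated samples, and KA_enriched replicate 3 lay among the KA_isolated ones. The difference after KA was -0.36 in isolated rats (SE 0.12, limma, adjusted p = 0.999), and between the housings after KA it was 0.28 (SE 0.12). Ndufaf8, the partner protein of Ndufaf5, spread widely, from 110.5 to 222 over the 12 samples, and its largest difference was 0.30 (SE 0.21) between the housings after PBS. Signals of the remaining pair, Ndufaf3 and Ndufaf7, ranged from 169 to 223 and from 86.9 to 116. The residuals of the 5 assembly probe sets did not move together, with a median pairwise correlation of -0.27 over the 12 samples. It was 0.17 for complex I, 0.023 for II, 0.041 for III, 0.14 for IV, 0.30 for V and 0.11 for all members. Over all tested probe sets it was -0.00030, and over the 668 at or above the members' median level it was 0.058. Complexes II and III lay below the latter value.

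**Figure D2:**
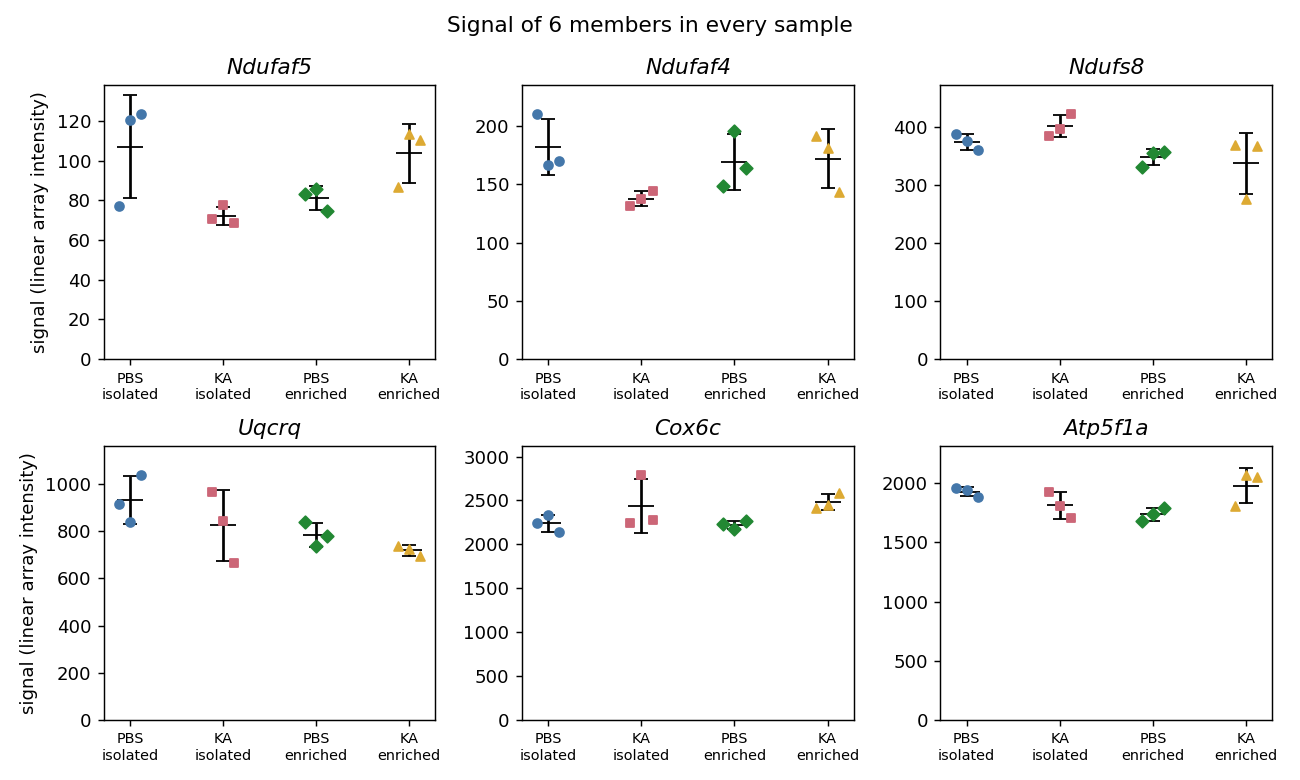
Signal (linear array intensity, vertical axis from 0) of 6 members in the 4 groups, with a point per sample and bars for the mean ± SD (n = 3). The means of Ndufaf5 and Ndufaf4 are lowest in KA_isolated, those of Ndufs8 and Uqcrq are lowest in KA_enriched, and Cox6c and Atp5f1a are highest in KA_enriched.

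Complex I shows the range among catalytic and accessory subunits. Ndufs8, a core subunit that holds iron-sulfur clusters, had signals of 388, 377 and 360.4 in PBS_isolated and 385, 397 and 422 in KA_isolated. In the enriched rats it had 332, 356 and 358 in PBS_enriched and 369, 276 and 367 in KA_enriched. All KA_enriched samples lay below all KA_isolated ones, most of all replicate 2, and the difference between the housings after KA was -0.25 (SE 0.100, limma, adjusted p = 0.661). Over both treatments it was -0.18 (SE 0.071). Ndufs4, an accessory subunit whose loss causes a Leigh-like encephalopathy in mice, had signals of 103, 107 and 85.7 in PBS_isolated and 102, 104 and 117 in KA_isolated. It had 90.5, 89.7 and 102 in PBS_enriched and 109.8, 122 and 103 in KA_enriched. KA samples were the higher ones without overlap in enriched rats only, where the difference was 0.21 (SE 0.092), and over both housings it was 0.16 (SE 0.065). The interaction for Ndufs4 was 0.095 (SE 0.13), so the housings were not shown to differ.

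Ndufb7, an accessory subunit of the membrane arm, had signals of 353, 390.4 and 340.3 in PBS_isolated and 382, 359 and 385 in KA_isolated. It had 363, 399 and 363 in PBS_enriched and 336, 288 and 355 in KA_enriched. The KA_enriched samples were lower than both neighbouring groups without overlap, with differences of -0.19 (SE 0.088) from PBS_enriched and -0.20 (SE 0.088) from KA_isolated and an interaction of -0.25 (SE 0.12). Other membrane arm subunits went different ways. Ndufb1 differed between the housings after KA by 0.18 (SE 0.076) and over both treatments by 0.12 (SE 0.054), and Ndufb4 differed after PBS by -0.15 (SE 0.075). Ndufb6 had 0.13 (SE 0.082) for KA in isolated rats and Ndufb5 had -0.16 (SE 0.11) for KA in enriched rats, or -0.27 without KA_enriched replicate 3. Ndufv1, which binds NADH, had -0.13 (SE 0.080) for KA over both housings, and Ndufa12 had an interaction of -0.22 (SE 0.13). None of these had an adjusted p under 0.630 (limma).

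Complex II also serves the citric acid cycle, and all 4 of its subunits were measured. Sdha, the flavoprotein that oxidises succinate, had signals of 828, 931 and 836 in PBS_isolated and 819, 1040.0 and 886 in KA_isolated. It had 846, 831 and 929.9 in PBS_enriched and 944, 887 and 796 in KA_enriched. All 4 groups overlapped, with differences of 0.075 (SE 0.099) for KA in isolated rats and -0.059 (SE 0.099) between the housings after KA. Sdhb, the iron-sulfur subunit, had mean signals of 741 ± 38.8 after PBS and 734 ± 25.5 after KA in isolated rats, and 737 ± 18.2 and 711 ± 51.1 in enriched rats. Sdhc, which with Sdhd anchors the complex in the membrane, had mean signals of 556 ± 44.5 after PBS and 541 ± 33.3 after KA in isolated rats, and 541 ± 23.3 and 536 ± 64.7 in enriched rats. Sdhd was the only gene with 2 tested probe sets. Their KA differences in isolated rats were 0.041 (SE 0.10) and 0.075 (SE 0.082), and they had the same sign in all 4 pairwise comparisons. In the pooled ones their signs were opposite, at -0.0039 and 0.025 for KA and 0.028 and -0.016 for housing, with every SE above 0.05. Of the 5 probe sets of complex II, 0 had the higher mean in enriched rats after KA, with a median of -0.046, and without KA_enriched replicate 3 it was 1 of 5, with a median of -0.0090.

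In complex III the 2 members of largest difference were small accessory subunits. Uqcr10 had signals of 1090.3, 1277 and 885 in PBS_isolated and 1425, 1469 and 1075 in KA_isolated. It had 1091, 1041 and 946 in PBS_enriched and 1109, 1058 and 1254 in KA_enriched. KA_isolated replicates 1 and 2 were the highest of all 12, and replicate 3 was not. The KA difference was 0.29 (SE 0.14) in isolated rats and 0.22 (SE 0.098) over both housings. Uqcrq went the other way, with signals of 918, 837 and 1039 in PBS_isolated and 968, 842 and 667 in KA_isolated. It had 839, 739 and 778 in PBS_enriched and 738, 725 and 694 in KA_enriched. Its KA_enriched samples lay below all PBS_enriched samples, if barely, and the difference between the housings over both treatments was -0.21 (SE 0.084, limma, adjusted p = 0.832). Cyc1, cytochrome c1, which hands electrons to cytochrome c, stayed within 1125 to 1279 in all samples, with a KA difference of 0.017 (SE 0.051) over both housings.

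Complex IV had 10 of 11 probe sets with the higher mean after KA over both housings, with a median of 0.038. Without KA_enriched replicate 3 the count was 7 of 11 and the median 0.013. Cox6c, a nuclear-encoded subunit, had signals of 2247, 2329 and 2138 in PBS_isolated and 2239, 2789 and 2274 in KA_isolated. It had 2226, 2175 and 2261 in PBS_enriched and 2413, 2452 and 2579.7 in KA_enriched. In enriched rats the KA samples were higher without overlap, in isolated rats they overlapped, and the difference over both housings was 0.14 (SE 0.061, limma, adjusted p = 0.996). Cox7b, needed for assembly of the enzyme, had signals of 1356, 1468 and 1414 in PBS_isolated and 1488, 1549.7 and 1493 in KA_isolated. It had 1603, 1496 and 1538 in PBS_enriched and 1571, 1479 and 1532 in KA_enriched. The PBS_isolated samples were the lowest group, and the difference between the housings after PBS was 0.13 (SE 0.067). Cox7a2l had signals of 852, 839 and 839 in PBS_isolated and 928, 821 and 891 in KA_isolated. It had 802, 819.7 and 806 in PBS_enriched and 764, 801 and 789.9 in KA_enriched. The enriched samples were lower than the isolated ones of the same treatment without overlap, with differences of -0.058 (SE 0.068) after PBS and -0.16 (SE 0.068) after KA. Of the other subunits, Cox5a had 0.038 (SE 0.089), Cox5b 0.036 (SE 0.049) and Cox7c 0.047 (SE 0.059) for KA over both housings.

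In complex V the alpha subunit Atp5f1a, part of the catalytic head, had signals of 1963, 1940.5 and 1887 in PBS_isolated and 1928, 1804 and 1705 in KA_isolated. It had 1683, 1742 and 1789.8 in PBS_enriched and 1807, 2069.5 and 2056 in KA_enriched. KA samples were higher without overlap in enriched rats, by 0.18 (SE 0.077), whereas in isolated rats the difference was -0.092 (SE 0.077), and the interaction was 0.27 (SE 0.11, limma, adjusted p = 0.951). Atp5mk, a small subunit linked to dimers of the enzyme, had signals of 2219.8, 2195 and 2138 in PBS_isolated and 2199, 2189.6 and 2245 in KA_isolated. It had 2026, 1881 and 1926 in PBS_enriched and 1883, 2085 and 2213 in KA_enriched. Its PBS_enriched samples lay below all PBS_isolated samples, with a difference of -0.17 (SE 0.074), and the housing difference over both treatments was -0.14 (SE 0.052). Atp5if1, which stops the enzyme from running backwards and consuming ATP, had signals of 417, 453 and 387 in PBS_isolated and 460.2, 458 and 434 in KA_isolated for its bright probe set. It had 466, 464 and 445 in PBS_enriched and 394, 445 and 433 in KA_enriched. The PBS_isolated and KA_enriched means were the lower ones. Its difference was 0.13 (SE 0.077) between the housings after PBS and -0.11 (SE 0.077) for KA in enriched rats, with an interaction of -0.21 (SE 0.11). Atp5f1d, the delta subunit, had 0.14 (SE 0.087) for KA in isolated rats, without overlap.

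KA against PBS in enriched rats gave 47 of 81 members with the higher mean and a median of 0.021, against -0.0033 over all tested probe sets. At an unadjusted p under 0.05, 2 were higher and 1 lower, with 4.98% of all tested probe sets past that p. The split depended on KA_enriched replicate 3. Without it 35 of 81 were higher, the median was -0.0092, and 1 was higher and 5 lower at that p, against 6.99% of all. Quantile normalization also turned the sign of the median, to -0.0023, with 46.9% of members higher in place of 58%. By complex, with and without the sample, the median was -0.015 and -0.039 for complex I, 0.039 and -0.0091 for complex IV, and 0.030 and -0.013 for complex V.

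Enriched against isolated housing after PBS gave 35 of 81 members with the higher mean. The median was -0.010, against 0.0026 over all tested probe sets, and quantile normalization turned it to 0.0031. At an unadjusted p under 0.05, 0 were higher and 2 lower, Ndufaf5 and Atp5mk, against 4.21% of all tested probe sets. Complex III had 6 of 8 lower, with a median of -0.063, and the other complexes were split more evenly. After KA, 25 of 81 were higher in enriched rats and 56 lower, with a median of -0.039, against 0.0030 over all tested probe sets. Quantile normalization gave a median of -0.027. At an unadjusted p under 0.05, 3 were higher and 3 lower, against 7.02% of all. Without KA_enriched replicate 3 the lower count was 63 of 81, the median -0.056, and 2 were higher and 9 lower at that p, against 8.99% of all. By complex, 3 of 16 were higher in complex V (2 of 16 without the sample), 11 of 36 in complex I (8 of 36) and 2 of 8 in complex III (2 of 8). Their medians with and without it were -0.039 and -0.11, -0.045 and -0.087, and -0.035 and -0.068. The sign of the median turned in complex IV, where 6 of 11 were higher with a median of 0.0032, against 3 of 11 and -0.056 without the sample.

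**Figure D3:**
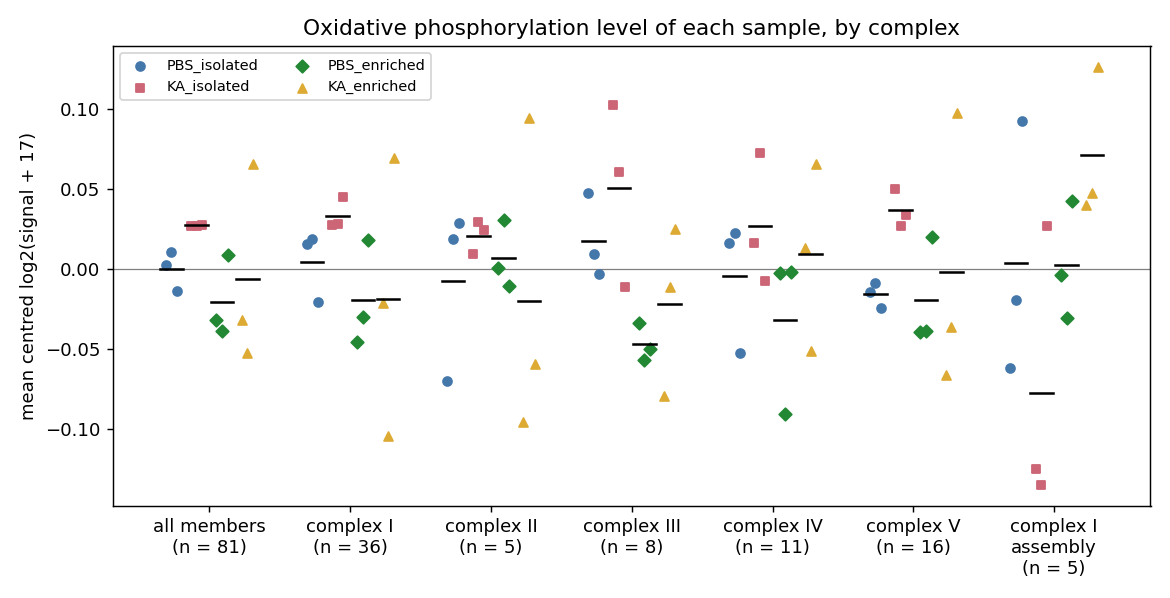
Mean over members of log2(signal + 17), each probe set centred on its mean over the 12 samples (vertical axis), for all members and by complex, with a point per sample and a line at the group mean. The KA_isolated samples sit together at 0.027 to 0.028 for all members, while KA_enriched runs from -0.053 to 0.066, the lowest and the highest score of the 12.

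Averaged over all 81 members, each sample had a score, its mean centred log2 value. Scores were 0.0027, 0.011 and -0.014 in PBS_isolated and 0.027, 0.027 and 0.028 in KA_isolated. They were -0.032, -0.039 and 0.0087 in PBS_enriched and -0.032, -0.053 and 0.066 in KA_enriched. All KA_isolated scores were above all PBS_isolated scores, with means ± SD of 0.027 ± 0.00029 and -0.000265 ± 0.013. These means differed by more than either SD, but by less than the pooled SD within all 4 groups, 0.035. The pooled value takes in SDs of 0.026 in PBS_enriched and 0.063 in KA_enriched. KA_enriched replicate 3 had the highest score of the 12 for all members, for complex I (0.070) and for complex V (0.098). Besides leaving it out, a fit took the beta-actin 3' to 5' ratio of each array as a covariate. With it the median difference between the housings over both treatments was -0.042, against -0.024 without it. The part of this sample in the result was not tested further.

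Pooling the groups narrows the error. KA over both housings had 56 of 81 members higher and a median of 0.029, against -0.0034 over all tested probe sets. At an unadjusted p under 0.05, 3 were higher and 0 lower, against 4.31% of all tested probe sets. Quantile normalization brought the higher share from 69.1% to 58%, and without KA_enriched replicate 3 the count was 45 of 81, the median 0.0071, and 1 was higher and 1 lower at that p, against 4.95% of all. Enriched against isolated housing over both treatments had 55 of 81 lower and a median of -0.024, against 0.0021 over all tested probe sets. Quantile normalization brought the median to -0.011 and the higher share from 32.1% to 39.5%. At an unadjusted p under 0.05, 1 was higher and 4 lower, against 5.64% of all. Without KA_enriched replicate 3 this comparison had 59 of 81 lower and a median of -0.046. Then 0 were higher and 6 lower at that p, against 7.18% of all. For the interaction, 49 of 81 were below 0, with a median of -0.032, against -0.00062 over all tested probe sets. At that p, 3 were higher and 0 lower, against 4.97% of all. Without that sample 54 of 81 were below 0, with a median of -0.065, and 3 were higher and 3 lower at that p, against 7.54% of all. The members share their samples and are not independent of each other, so these counts of direction carry no test.

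The intervals bound what the arrays could have missed. For KA over both housings, the 95% interval lay within a 1.2-fold change in either direction for 66 of 81 members. That was 81.5%, against 75.5% of all tested probe sets. For housing over both treatments it was 67 of 81 (82.7%, against 72.4% of all). In both, all 81 lay within 1.5-fold, as did 99.3% of all tested probe sets. The interval counts include KA_enriched replicate 3 and are not given without it. A median interval reached 0.13 on the log2 scale to either side. In the pairwise comparisons it reached 0.19. There 43 to 47 members (53.1% to 58%) lay within 1.2-fold, against 34.5% to 38.7% of all tested probe sets. For the interaction the median interval reached 0.27. There 7 of 81 lay within 1.2-fold (8.64%, against 5.28% of all) and 73 within 1.5-fold (90.1%, against 82.7%). A 1.2-fold difference between the housings in how a member answered KA was thus not excluded for most members.

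**Figure D4:**
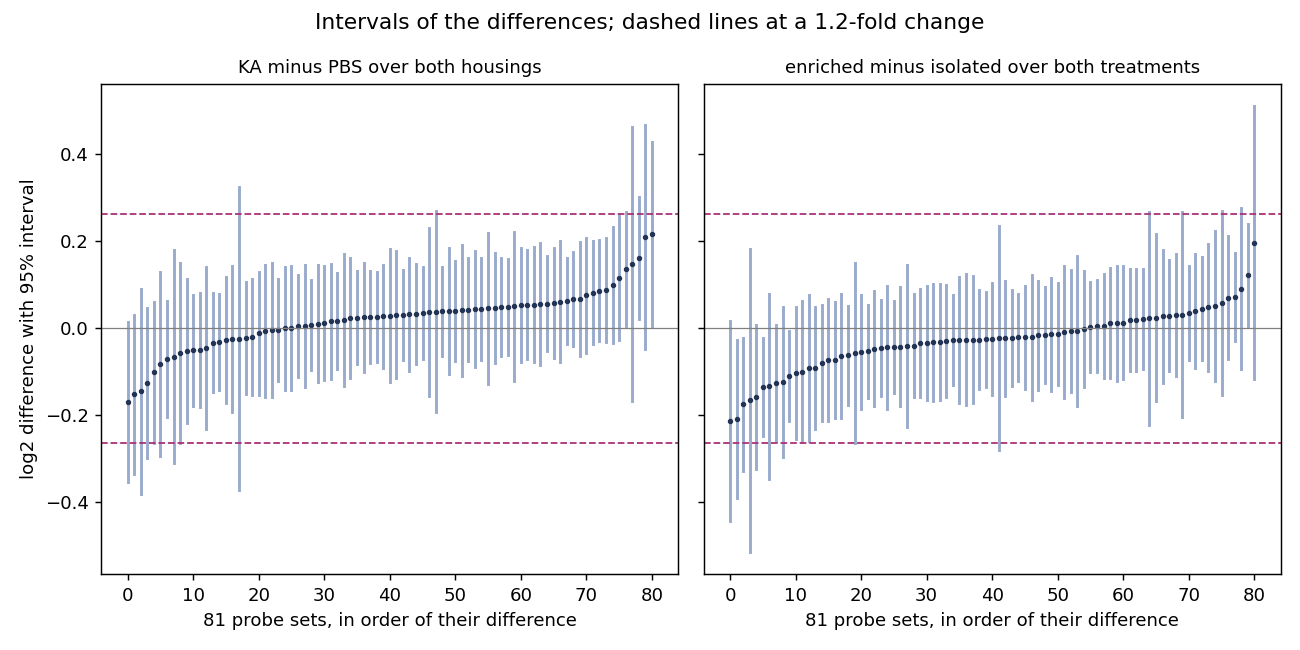
Log2 difference with its 95% interval (vertical axis) of the 81 tested members, in order of their difference, for KA minus PBS over both housings (left) and enriched minus isolated over both treatments (right). Dashed lines mark a 1.2-fold change, and 66 of the 81 intervals lie between them on the left and 67 on the right.

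Other genes of the same pathway were taken from written lists, with a probe set per gene. None passed in any of the 7 comparisons. The 18 genes of the citric acid cycle had medians from 0.00027 to 0.025 over the 6 pairwise and pooled comparisons, with 10 of 18 higher after KA in isolated rats. Mitochondrial carriers and pores had 10 of 16 higher there, with a median of 0.032, and glycolysis and lactate genes 16 of 19, with a median of 0.029. Regulators of mitochondrial biogenesis had 2 of 9 higher, with a median of -0.027. Assembly factors of complex IV were split 8 to 8, and the longer list for complex I, which includes the 5 Ndufaf genes above, had 3 of 10 higher. For KA in enriched rats the counts were 9 of 18 for the citric acid cycle, 10 of 16 for carriers, 10 of 19 for glycolysis and 6 of 9 for biogenesis, with a median of 0.053 in the last. Assembly factors there had 8 of 16 higher for complex IV and 7 of 10 for complex I. After KA, 10 of 18 citric acid cycle genes and 5 of 16 carriers were higher in enriched than in isolated rats. So were 8 of 19 glycolysis and 5 of 9 biogenesis genes. For assembly factors it was 10 of 16 for complex IV and 6 of 10 for complex I. Shorter assembly lists of complexes II, III and V had 2 of 4, 2 of 5 and 2 of 2 higher after KA in isolated rats. In enriched rats it was 1 of 4, 1 of 5 and 2 of 2. Of all tested probe sets, 47.7% were higher after KA in isolated rats and 48.7% in enriched rats. After KA, 51.1% were higher in enriched than in isolated rats. List counts that use KA_enriched include its replicate 3 and are not given without it. No list was tested as a whole.

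Some genes of these lists, picked for their small p after the values were seen, are given with their signals. Prkaa2, a catalytic subunit of the energy sensor AMPK, had mean signals of 110.0 ± 7.65 after PBS and 93.7 ± 14.7 after KA in isolated rats, and 121 ± 9.94 and 127 ± 20.6 in enriched rats. Its difference between the housings after KA was 0.38 (SE 0.12, limma, adjusted p = 0.622). Esrra, a nuclear receptor that drives mitochondrial genes, had mean signals of 62.7 ± 7.54 after PBS and 50.7 ± 4.96 after KA in isolated rats, and 61.2 ± 15.2 and 47.6 ± 6.50 in enriched rats, with -0.25 (SE 0.090) for KA over both housings. Cox20, a complex IV assembly factor, had 62.9 ± 1.95 after PBS and 59.2 ± 1.19 after KA in isolated rats, and 65.5 ± 9.22 and 74.2 ± 1.99 in enriched rats, and all KA_enriched samples lay above all KA_isolated ones, by 0.26 (SE 0.080). Ppargc1a, a main coactivator of mitochondrial biogenesis, was below the filter, with signals from 22.5 to 53.5.

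Markers of cell types were set beside these values, and none passed after adjustment (limma). All 7 microglial markers had the higher mean after KA in isolated rats, 6 at an unadjusted p under 0.05, against 4.31% of all tested probe sets. In enriched rats 3 of 7 did, 0 at that p, with a median of -0.039. Their summed signals were 766 to 824 after PBS and 1155 to 1434 after KA in isolated rats, and 802 to 1253 and 736 to 1183 in enriched rats. The 6 astrocyte markers summed to 8658 to 9217 after PBS and 9552 to 10088 after KA in isolated rats, and to 8469 to 9293 and 8563 to 10026 in enriched rats, where they overlapped. The 6 markers of pyramidal and granule neurons summed to 5984 to 6391 after PBS and 5686 to 6458 after KA in isolated rats. In enriched rats they summed to 5868 to 6078 and 5496 to 6541, and all groups overlapped. The 5 interneuron markers summed to 2234 to 2350 in PBS_isolated, above the other groups. Those were 2148 to 2203 in KA_isolated, 2124 to 2157 in PBS_enriched and 2130 to 2175 in KA_enriched. All 5 had the lower mean after KA in isolated rats, with a median of -0.017 and 0 at an unadjusted p under 0.05. In enriched rats 3 of 5 did. Markers of the choroid plexus, a tissue beside the hippocampus, summed to 229.9 to 2904 in PBS_isolated and to no more than 853 in the other groups. The lowest single signal among microglial markers was 28.4, so none was at 0. The part of these cell types in the oxidative phosphorylation values was not tested.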

How the data were processed

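RNA of 12 rat hippocampus samples, in 4 groups of 3 taken from the treatment text of the labels, was measured on single-colour arrays. The deposited values were probe set intensity on a linear scale. For the method that summarised probes, the sources used here give no name. The deposited scaling was kept because the highest and lowest array medians had a ratio of 1.058. The number of arrays limits the precision. All fits used log2(signal + 17). The added 17 equals the 20th percentile of all values, so differences of dim genes are understated. The 57 control probe sets were left out, and the brightest 60% of the other 15866 were tested, which left 9520.

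The fit was made with R 4.3.3 and limma 3.58.1, as 1 model with a mean per group and 13.1 degrees of freedom, for 7 contrasts. Tests were two-sided, with Benjamini-Hochberg adjustment across all 9520 and a threshold of 0.05, and intervals are at 95%. The steps were tested on simulated data. Same-numbered samples of different groups were not paired in the main fit. Their residuals correlated by -0.072 to 0.20 (18 pairs, mean 0.050), against -0.14 to 0.10 for the 36 other pairs (mean -0.025). These values do not settle whether the numbers pair samples.

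The members and the gene lists were chosen with earlier results of these data known. Named genes were any member that passed, the 3 higher and 3 lower of smallest p in each contrast, the brightest of each complex, the isoforms of complex IV, Ndufa4 and its relative, the complex II subunits, Cyc1 and Atp5if1. A list of fatty acid oxidation genes was planned and not run. Alternatives changed the pseudocount, filter, scaling, array weights, a beta-actin covariate, the samples in the fit, the probe set per gene, the replicate block and each replicate. Promoter windows came from RefSeq (GRCr8).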

Additional observations from a re-analysis of the deposited data

How the results depend on the processing

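In the 151 combinations of an alternative setting and a comparison that were counted, 0 members passed. Fitting only the groups compared was run for the 4 pairwise comparisons, and 1 probe set per gene for the medians alone. The lowest adjusted p was 0.279 (limma), for the interaction without PBS_isolated replicate 1. Median log2 differences of the members moved by less than the pooled SD of the scores, 0.035. That SD is larger than the main median itself in most comparisons. A median could thus vanish or change sign within it, and the bound does not show that the medians are stable. Leaving out each replicate in turn gave medians of 0.028 to 0.050 for KA in isolated rats, -0.0092 to 0.033 for KA in enriched rats, -0.031 to -9.0e-05 between the housings after PBS and -0.056 to -0.016 after KA. It gave 0.0071 to 0.038 for KA over both housings, -0.046 to -0.0086 for housing over both treatments and -0.065 to -0.0073 for the interaction. The sign turned for KA in enriched rats without KA_enriched replicate 3, under quantile normalization (-0.0023) and under array weights (-0.0041), and between the housings after PBS under quantile normalization (0.0031). With the replicate block the lowest adjusted p between the housings after KA was 0.558 (limma). Every group holds the same replicate numbers, so the block can change only the errors and not the differences. The medians of 0.050 for KA in isolated rats and -0.039 between the housings after KA were therefore bound to stay. Whether the numbers pair the samples was not settled, and the block changed no call. Dim isoforms limit the signal over background, and with 3 arrays per group the intervals do not exclude a 1.2-fold interaction for most members.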
